A study of Mus musculus with 8 samples.

Results

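In c-Kit+ mouse bone marrow, 629 autosomal regions of open chromatin were called in both Smc3 del/+ libraries and in none of the 6 libraries of the other genotypes. They were chosen by their peak calls: all peaks of the 8 libraries were merged into union regions wherever they overlapped by at least 1 bp, and a region on chromosomes 1 to 19 was kept when it held a peak of both Smc3 del/+ libraries and of no other library. The merge gave 109822 regions on these chromosomes (114533 with X and Y), so the 629 are 0.573% of those that could have been kept. Since the calls of all 8 libraries set this number, it is a description and has no test.

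Accessibility was profiled by ATAC-seq, in which a transposase inserts adapters into DNA that it can reach, in 50000 cells per library. The marrow was taken 4 weeks after injection of PIpC, which induces the interferon-responsive Mx1 promoter and thereby the Mx1-Cre recombinase. There were 4 genotypes with 2 libraries each. Control mice (Smc3 fl/+) carried a floxed Smc3 allele and no Mx1-Cre. Smc3 del/+ mice carried Mx1-Cre and had a deleted Smc3 allele beside a wild-type one. Flt3-ITD mice carried the internal tandem duplication of Flt3. Sample titles mark both the Flt3-ITD and the combined genotype as Mx1-Cre positive. The combined genotype is given as Smc3 fl/del Flt3-ITD in the genotype label and as Smc3 heterozygous in the title, so the state of its second Smc3 allele is not settled. Smc3-deleted Flt3-ITD is used as its name below. Control differs from Smc3 del/+ in both the recombinase and the allele, and these cannot be told apart in that comparison. The labels give neither age nor sex. They speak of individual mice but do not say outright that both libraries of a genotype are from different animals. The p-values below therefore rest on the spread between libraries, and that spread may be technical. In the free-text descriptions, Smc3 del/+ and Flt3-ITD libraries each carry the text that fits the other. Titles and genotype labels were followed. If the descriptions were right instead, 363 regions would take the place of the 629.

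Smc3 is a core subunit of cohesin, a ring complex that holds sister chromatids together after replication and extrudes chromatin loops in interphase. Loops stop preferentially at sites bound by CTCF, and this brings enhancers near promoters or keeps them apart. In blood formation cohesin dose is known to matter: cohesin genes are recurrently mutated in myeloid leukemia, mostly so that some function is kept. Flt3 is a receptor tyrosine kinase of early progenitors, and the internal tandem duplication makes it signal without ligand. The c-Kit+ fraction of marrow holds stem and progenitor cells of many lineages. In a bulk library, a region open in more cells and a region more open in each cell cannot be told apart.

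The deposited files were 1 peak list per library with 61953 to 80698 peaks, a score for each peak, and no read numbers, so depth is unknown for every library. Coordinates are of the mm9 build, counted from 1. Without an mm9 genome or annotation to read from, regions have no gene, exon, intron or promoter assigned, the c-Kit+ label was not checked against marker loci, and no sequence is printed. The Smc3-deleted Flt3-ITD lists were the longest of the 8. On Y, 134 regions were called only in both libraries of that genotype, against 1 to 3 in each other genotype, and the rule leaves the sex chromosomes out. Without both libraries of that genotype, an alternative added after seeing the data, 1004 regions would pass.

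Of the 46680 autosomal regions called in both Smc3 del/+ libraries, 35155 were called in all 8 libraries. No control library called 1719 of the 46680. Flt3-ITD libraries called none of 959 of these, and the Smc3-deleted Flt3-ITD libraries called none of 629. The 629 are thus 1.35% of what both Smc3 del/+ libraries called and 36.6% of what they called and control did not. Most regions that 1 Smc3 del/+ library called alone among the genotypes did not recur in its replicate. Replicate 1 had 2803 regions that no other genotype called, of which 22.4% were found in replicate 2, and replicate 2 had 3083, of which 20.4% were found in replicate 1.

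The region count was sensitive to a single control library. A further 1342 regions were called in both Smc3 del/+ libraries and in 1 library of another genotype, and in 907 of them (67.6%) that library was control replicate 1. Control replicate 2 was the extra library in 140 regions, the Flt3-ITD libraries in 52 and 54, and the Smc3-deleted Flt3-ITD libraries in 97 and 92. Control replicate 1 had the longest list of the 6 libraries outside the combined genotype (74525 peaks, against 64777 in control replicate 2). Its peaks in the 907 regions ranked low in its list, at a median score percentile of 29.4. In the regions of each other library this median was lower still, from 14.3 in Flt3-ITD replicate 2 to 22.0 in Flt3-ITD replicate 1. Without control replicate 1 the rule would keep 1537 regions, and without control replicate 2 it would keep 802. With the 61953 highest-scoring peaks of each library, so that all lists were equally long, 1157 regions would be kept. Leaving out either of the 2 longest lists, those of Smc3-deleted Flt3-ITD, gave 739 and 743, with the replicate of the omitted list still in the rule. Without both of them the count was 1004. The part of list length in the count was not tested.

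Scores of these regions were low. The score is the authors' own value between 0.99 and 1, and neither labels nor files say what it measures, so it was turned into a percentile among the peaks of the same library. Peaks tied at a score of exactly 1 share the 86.4th percentile in Smc3 del/+ replicate 1 and the 86.3rd in replicate 2, which are the highest values possible. The regions open only in Smc3 del/+ had a median percentile of 20.6 in replicate 1 and 22.3 in replicate 2. Over all regions called in both libraries the medians were 59.4 and 60.4. A score of exactly 1 was reached by 18 of the 629 in replicate 1 (2.86%, exact 95% interval 1.70 to 4.49) and by 19 in replicate 2 (3.02%, 1.83 to 4.68). The same shares over all regions called in both were 33.7% and 34.7%. At the other end, 43.1% (39.2 to 47.1) of the 629 scored more than 0.001 below 1 in replicate 1 and 39.0% (35.1 to 42.9) in replicate 2, against 9.45% and 8.44% over all regions called in both. These intervals are Clopper-Pearson intervals and cover counting error only. In 146 regions both libraries scored that low, and in 41 both stood above the 50th percentile.

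**Figure D1:**
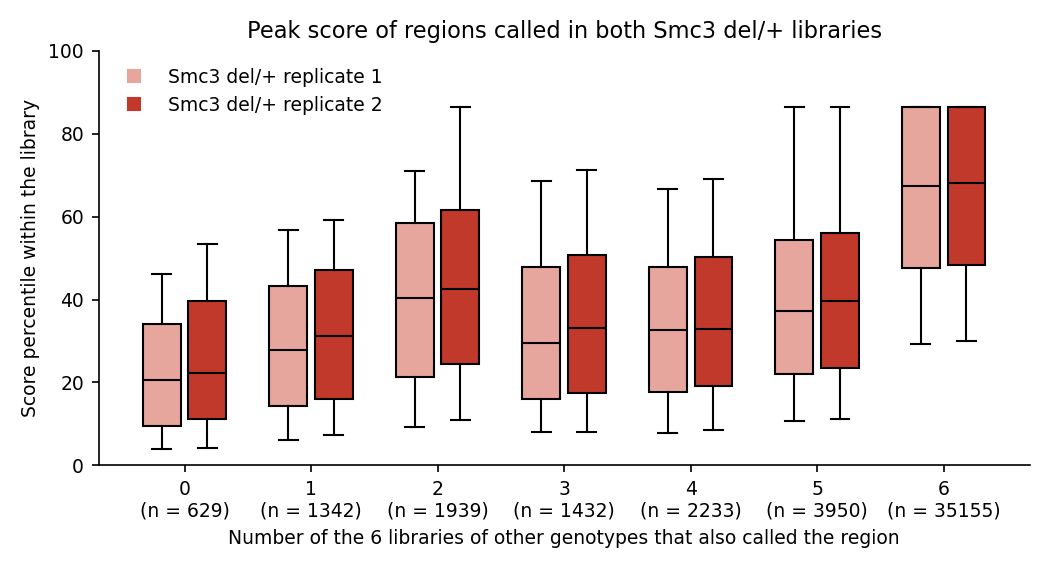
Score percentile within the library (vertical axis) of regions called in both Smc3 del/+ libraries, by how many of the 6 libraries of other genotypes also called them (horizontal axis); boxes span the quartiles with the median as a line, and whiskers run from the 10th to the 90th percentile of regions. Regions called in no other library have the lowest medians (20.6 and 22.3), and those called in all 6 have the highest (67.4 and 68.0).

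The plot of score by sharing shows that the percentile did not climb evenly with the number of other libraries. Regions shared with 1 other library had medians of 27.9 and 31.2 in the 2 replicates. Those shared with 2 others stood higher, at 40.4 and 42.5, than those shared with 3, at 29.5 and 33.1. Regions found in 5 of the 6 others reached 37.2 and 39.6. The step to regions called in all 6 was the widest, to 67.4 and 68.0. Across the 629 regions the percentile of one replicate followed that of the other less closely (Spearman's rho = 0.436) than across all 46680 regions called in both (rho = 0.872). Both are descriptions across regions of the same 2 libraries, and the 629 cover a narrower range of scores.

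Peak widths were close to those of other regions. The peaks of the 629 covered a median of 450 bp in replicate 1 and 453 bp in replicate 2, against 449 and 443 bp over all regions called in both. In both sets a narrow class below about 500 bp was the larger and a wide class the smaller. More than 700 bp were covered in 33.7% (30.0 to 37.5) of the 629 in replicate 1 and in 28.8% (25.3 to 32.5) in replicate 2, against 32.3% and 31.5% over all regions called in both. The class was often not the same in both libraries: 76 regions were wide in both, 312 in neither, and the others in 1 of them. Widths of the replicates followed each other weakly across the 629 regions (rho = 0.239), as they did across all regions called in both (rho = 0.240). The union region itself was narrower, at a median of 780 bp against 1133 bp. It is joined from 2 lists here and from up to 8 in the larger set.

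**Figure D2:**
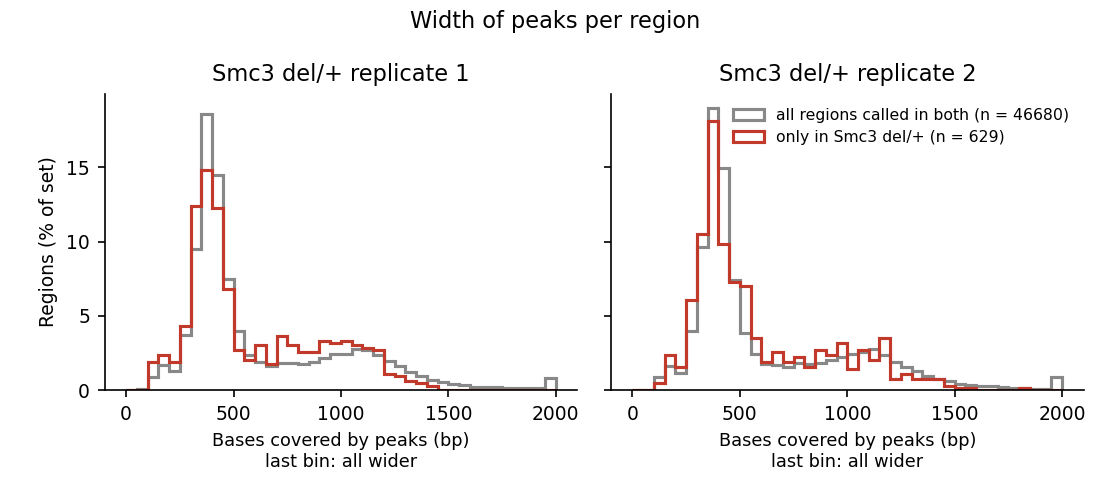
Bases covered by peaks in each region (horizontal axis, bp, bins of 50 bp) in Smc3 del/+ replicate 1 (left) and replicate 2 (right), as a percentage of the regions of each set (vertical axis); red is the 629 regions open only in Smc3 del/+ and grey is all 46680 regions called in both libraries. Both sets have a narrow class below about 500 bp and a wide one around 1000 bp, and their medians lie within 10 bp of each other.

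The peaks of the 2 libraries mostly lay on top of each other. In 574 of the 629 regions (91.3%) they shared at least 50% of the shorter peak, and in 331 (52.6%) the shorter lay wholly within the longer. The shared stretch had a median of 354 bp, and its 10th and 90th percentiles were 140 and 682 bp. In 13 regions less than 10% of the shorter peak was shared, so that the call of both libraries rested on the edges of peaks that lay beside each other. A single peak from each library made up 615 of the regions.

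Open chromatin of the other genotypes was often close by, although none of it overlapped. A peak of at least 1 of the other 6 libraries lay within 1 kb of 247 regions (39.3%, exact 95% interval 35.4 to 43.2), within 100 bp of 75 (11.9%) and within 10 kb of 492 (78.2%). The median distance to the nearest such peak was 2027 bp. The number of other libraries with a peak within 1 kb was split between its ends: 382 regions had none, 85 had such a peak in all 6, and 162 had it in 1 to 5. Regions of these kinds differed in their values. Those with no peak of another genotype within 1 kb had median percentiles of 17.9 and 20.1 and a median region width of 855.5 bp. Those with a peak of all 6 within 1 kb had median percentiles of 37.6 and 33.0 and a median width of 455 bp.

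By library, control replicate 1 came closest to these regions. It had a peak within 100 bp of 8.90% of them, followed by Smc3-deleted Flt3-ITD replicates 1 and 2 with 4.45% and 4.13% and control replicate 2 with 4.29%. The Flt3-ITD libraries had such a peak beside 3.66% and 2.70%, and the Smc3 del/+ libraries had a further peak of their own beside 2.38% and 1.27%. Around all regions called in both Smc3 del/+ libraries these shares were 1.02% to 1.49% in the 8 libraries. The sets are not like for like, since a peak that overlaps a region was not counted as beside it. By the rule the 629 overlap no peak of another genotype, while 35155 of the 46680 regions called in both hold peaks of all 6 other libraries. At 10 kb the order of the sets was reversed: in each of the 8 libraries fewer of the 629 regions than of all regions called in both had a peak nearby. Genotype means at 10 kb ran from 60.7% in Flt3-ITD to 66.0% in control for the 629, and from 72.3% to 78.3% for all. By genotype, the share within 1 kb was 26.2% ± 5.51 in control, 22.3% ± 2.14 in Smc3 del/+, 21.7% ± 1.24 in Flt3-ITD and 23.1% ± 0.112 in Smc3-deleted Flt3-ITD (SD, n = 2 each). The spread of control alone covers the means of the other genotypes. All regions called in both had lower shares at 1 kb. Their genotype means ran from 18.05% in Smc3 del/+ to 19.4% in Smc3-deleted Flt3-ITD, with the same limit on comparing the sets.

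**Figure D3:**
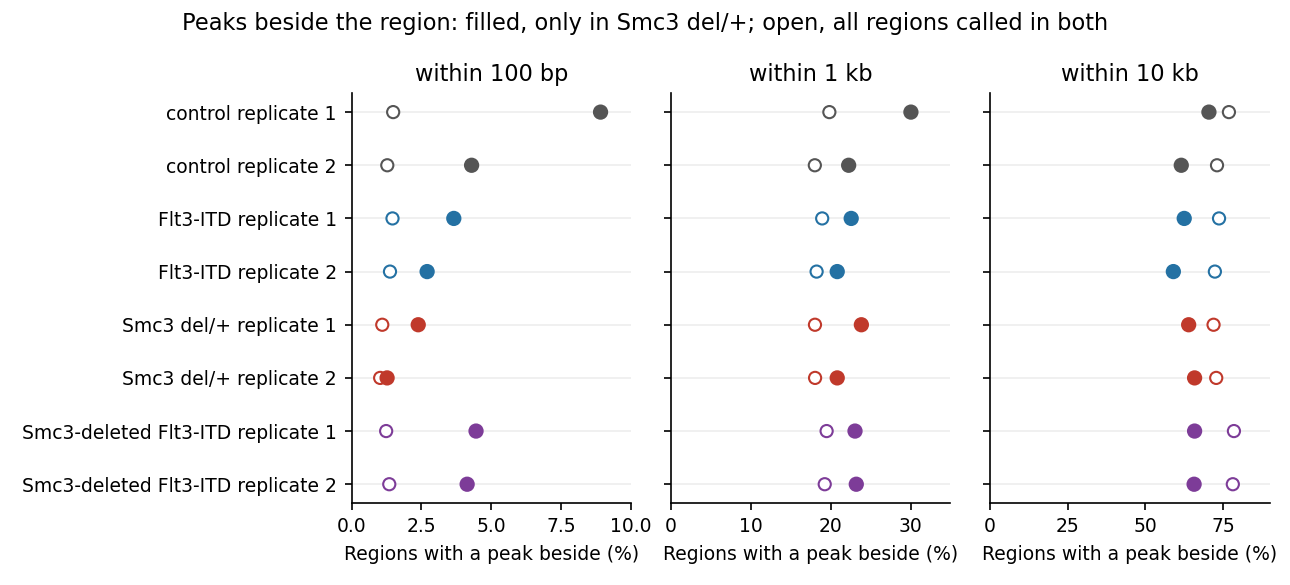
Percentage of regions (horizontal axis) that have a peak of the named library within 100 bp, 1 kb or 10 kb outside the region; filled points are the 629 regions open only in Smc3 del/+, open points all regions called in both Smc3 del/+ libraries, and colours mark the genotype. Within 100 bp and 1 kb the filled points lie to the right of the open ones in each library, and within 10 kb to the left. Peaks that overlap a region are not counted, and by the rule only the open points include regions that overlap peaks of other genotypes.

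The rule turns on a single base of overlap, and some regions lay just inside or just outside it. Just inside, the regions at chr10:9295712-9296084 and chr16:44358281-44358717 touched a peak of another genotype (Smc3-deleted Flt3-ITD replicate 1 and control replicate 1) with 0 bp between and no shared base. Their score percentiles were 16.4 and 11.5 in the 2 Smc3 del/+ libraries on chromosome 10, and 38.7 and 42.9 on chromosome 16. The third, on chromosome 18, had a score of 1 in both. Just outside, the region at chr4:53258564-53259533 shared 2 bp with a peak of control replicate 1, and that at chr11:11874795-11875546 shared 2 bp with a peak of Flt3-ITD replicate 1. Their percentiles in the Smc3 del/+ libraries were 50.1 and 23.3 on chromosome 4, and 43.6 and 19.1 on chromosome 11. The third, chr2:174120656-174121681, shared 3 bp with a peak of Smc3-deleted Flt3-ITD replicate 2. Such contacts were few: 33 of the 1342 regions shared with 1 other library rested on 50 bp or less, and the median overlap was 399 bp. Joining peaks up to 100 bp apart would leave 581 regions, and joining those up to 500 bp apart would leave 487.

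The highest-scoring of the 629 regions lay directly beside chromatin that was open in the other genotypes. In 15 regions both Smc3 del/+ libraries had a score of exactly 1, and in 14 of these all 6 other libraries had a peak within 1 kb. Beside 13 of the 15 lay, within 500 bp, a region called in all 6 other libraries and in neither Smc3 del/+ library. Over all 629 there were 19 such side-by-side pairs (3.02%, exact 95% interval 1.83 to 4.68), against 115 of the 46680 regions called in both (0.246%). These shares are not like for like. Of the 46680, 35155 already held peaks of all 6 other libraries, while the rule leaves the 629 without any, and the interval covers counting error only. The gap within the 19 pairs had a median of 36 bp and a range of 0 to 425 bp, and was under 100 bp in 14. The Smc3 del/+ region of a pair had a median width of 376 bp and the one beside it 454 bp, so that a pair spanned a median of 924 bp. The region of the other genotypes lay at lower coordinates in 8 pairs and at higher coordinates in 11. In 12 pairs the score was exactly 1 on both sides, in both Smc3 del/+ libraries for the one and in all 6 others for the other.

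Examples of these pairs show how sharply the calls alternated. At chr2:127952892-127953311, both Smc3 del/+ libraries had a peak with a score of 1, covering 420 and 365 bp. From 127953356 to 127953914, 44 bp further on, all 6 other libraries had a peak with a score of 1, covering 481 to 550 bp, and neither Smc3 del/+ library had one. At chr9:63450028-63450450 the peaks of the Smc3 del/+ libraries covered 366 and 423 bp, and those of the 6 others lay 70 bp further on, from 63450521 to 63450951, again with a score of 1 on both sides. The region at chr2:113689000-113689375 had the order reversed, with the peaks of the 6 others at 113688584 to 113688936, 63 bp before it. At chr13:110723146-110723570 the gap was 12 bp, and at chr7:3645556-3645928 it was 8 bp. The highest-ranked region of all, at chr8:83017951-83018427 (477 and 408 bp in the 2 libraries), stood 375 bp from a wider region of 1201 bp that the other 6 libraries called with percentiles of 39.0 to 66.4. In each of these examples every library had a peak within the pair, and the position of the call differed. Why it differed was not tested. The pairs were looked for after values of the regions had been seen.

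**Figure D4:**
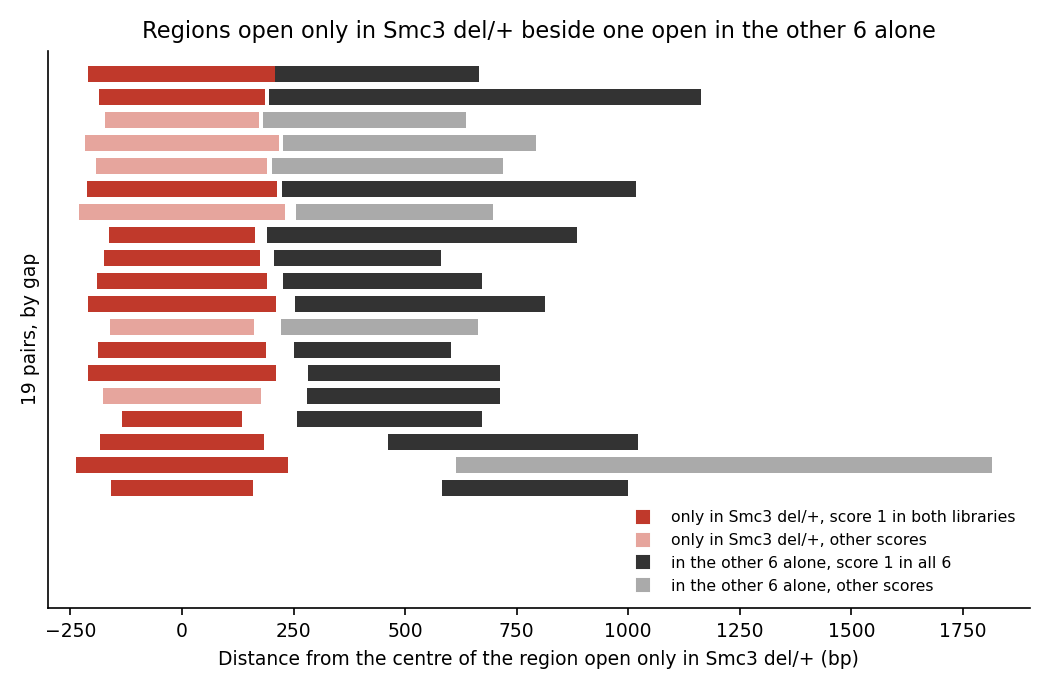
The 19 pairs of a region open only in Smc3 del/+ (red shades) and a region within 500 bp that was called in the other 6 libraries alone (grey shades), drawn to scale by distance from the centre of the former (horizontal axis, bp) and mirrored so that the latter lies to the right; dark shades mark a score of exactly 1 in all libraries of that side. In 12 of the 19 pairs both bars are dark, and the gap is under 100 bp in 14.

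Side-by-side pairs were also found with the other genotypes, so they are not peculiar to Smc3 del/+. Of the regions called only in both control libraries (692, which are 0.63% of all autosomal regions), 8 (1.16%) lay within 500 bp of a region called in the other 6 libraries alone. For Flt3-ITD, with 363 regions (0.331% of all autosomal regions), there were 10 pairs (2.75% of the 363). For Smc3-deleted Flt3-ITD, with 4975 regions (4.53% of all autosomal regions), there were 11 (0.221% of the 4975). High scores in pairs were also seen elsewhere. Of regions with a score of exactly 1 in both own libraries, 6 of 13 were in a pair for control and 7 of 10 for Flt3-ITD. The same counts were 9 of 35 for Smc3-deleted Flt3-ITD and 13 of 15 for Smc3 del/+. Smc3 del/+, at 3.02%, had the most pairs and also the most regions called in the other 6 libraries alone (1398, against 238 for control, 464 for Flt3-ITD and 267 for Smc3-deleted Flt3-ITD).

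Some regions lay far from any open chromatin of the other genotypes. In 137 of the 629 (21.8%, exact 95% interval 18.6 to 25.2) no other genotype had a peak within 10 kb, and in 18 none had one within 100 kb. The 137 had median percentiles of 19.7 and 18.1, against 20.6 and 22.3 over all 629, and in 1 of them both libraries stood above the 50th percentile. The most isolated, chr12:94788169-94789161, lay 375248 bp from the nearest peak of another genotype. Its peaks covered 357 bp in replicate 1 and 993 bp in replicate 2, with percentiles of 31.7 and 31.4. At chr1:177049263-177050017 the distance was 348491 bp, and the replicates differed (190 bp at percentile 6.61, and 755 bp at percentile 22.3). At chr8:51379155-51379632 it was 346123 bp, with percentiles of 4.15 and 21.8. The next, chr6:14535393-14536456 and chr14:50144692-50145156, stood 310412 and 286460 bp away. None of these 5 had a percentile above 31.7 in either library.

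Shared chromatin near these regions was compared across genotypes, since the rule did not use its scores or widths. The members were chosen on the calls of the same 8 libraries, however. The comparison is therefore not independent of the rule, and its p-value cannot separate the genotype from the choice of members. A region called in all 8 libraries lay within 50 kb of 487 of the 629, and the nearest of each gave 477 shared regions. In each library their mean score percentile was set against the mean over all 35155 shared regions of the same list. This removes the level of each list but not its ceiling, at which 42.1% and 43.2% of the shared regions were tied in the Smc3 del/+ libraries and 51.5% to 66.7% in the others. The neighbours stood 3.72 and 3.71 points above that mean in Smc3 del/+ replicates 1 and 2. They differed from it by -0.0724 and 0.173 points in the control libraries, by -0.0207 and -0.0142 in the Flt3-ITD libraries and by 0.452 and 0.348 in the Smc3-deleted Flt3-ITD libraries. Both Smc3 del/+ libraries lay above all 6 others. The difference of means was 3.57 points, with an exact two-sided permutation p of 0.0357 (n = 2 and 6), the smallest that the 28 assignments allow. After Benjamini-Hochberg adjustment over 2 tests the exact permutation p was 0.0714, so the difference did not pass. With 28 assignments it could have passed only if both tests had reached their smallest p. The difference was 11.6 points with medians over regions in place of means, and 2.02 points with the Flt3-ITD and Smc3 del/+ libraries exchanged as their descriptions have it.

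The share of neighbours with a score of exactly 1, added after seeing the data, was raised in both Smc3 del/+ libraries. It draws on the same scores of the same neighbours, chosen by the same rule, so it is not separate support. It was 49.5% and 50.5% in the Smc3 del/+ libraries, where the shared regions as a whole had 42.1% and 43.2%, a surplus of 7.33 and 7.36 points. In the other 6 libraries the surplus ran from -0.976 to 1.26 points. Over whole lists, a score of 1 was rarest in Smc3 del/+ (27.2% and 27.3% of peaks, against 30.9% to 34.9% in the others), and the part of this in the difference was not tested. Neighbours more than 10 kb away gave a difference in mean percentile of 4.79 points, and those within 10 kb gave 2.84. The width of the same neighbours gave no difference that could be told from the spread. On the log2 scale it differed from the mean of all shared regions by 0.0274 and -0.0322 in Smc3 del/+ replicates 1 and 2, and between -0.0440 and 0.0113 in the others. The difference of means was 0.0150 (exact permutation p = 0.607, n = 2 and 6, adjusted p = 0.607).

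The same pattern was seen around regions open only in each of the other genotypes. Neighbours of the control-only regions stood 1.52 ± 0.399 points above the mean in control libraries and 0.535 ± 0.556 in Smc3 del/+ libraries. Those of the Flt3-ITD-only regions stood 4.33 ± 0.251 points above it in Flt3-ITD libraries and 1.74 to 2.76 points (means) in the other genotypes. Those of the regions only in Smc3-deleted Flt3-ITD stood 1.60 ± 0.00733 points above it in their own libraries and below it in all others (SD, n = 2 each). In all 4 sets both libraries of the genotype that chose the set lay above the 6 others, so a raised score of nearby shared sites was not particular to Smc3 del/+. The sets were chosen on the same 8 libraries, and no test was made across them.

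**Figure D5:**
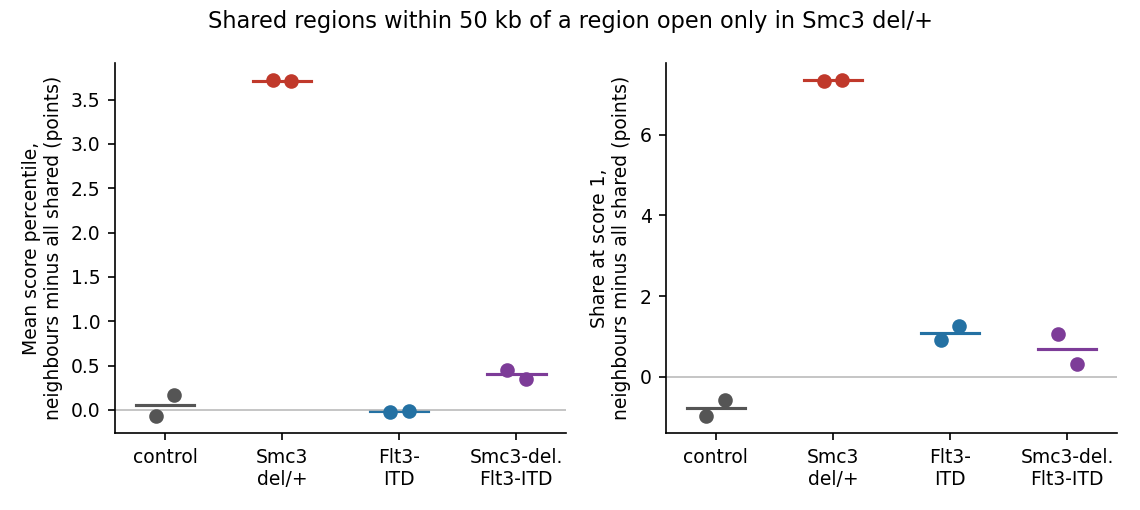
Shared regions within 50 kb of a region open only in Smc3 del/+ set against all regions called in all 8 libraries, as the difference in mean score percentile (left, percentile points) and in the share at a score of exactly 1 (right, percentage points); each point is a library and each line the mean of 2. The Smc3 del/+ libraries lie at 3.72 and 3.71 points on the left and at 7.33 and 7.36 on the right, above the 6 others in both panels.

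The 629 regions were spread over all 19 autosomes. Chromosome 18 had the highest number relative to its open chromatin: 32 of the 1453 regions called there in both Smc3 del/+ libraries (2.20%, exact 95% interval 1.51 to 3.09). Chromosome 15 had the lowest, with 15 of 1957 (0.766%, 0.430 to 1.26). The value over all autosomes, 1.35%, lay outside both of these intervals and inside those of the other 17 chromosomes, with 19 intervals compared. Chromosomes 1 and 2 held the most regions, 58 and 51, which are 1.74% and 1.40% of those called there in both Smc3 del/+ libraries.

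Most regions stood alone. Of the 1 Mb windows that held any, 418 held 1, 81 held 2, 12 held 3, and 3 held more. Another of the 629 lay within 10 kb of 16 regions and within 100 kb of 88 (14.0%), and the median distance to the next was 970256 bp. For the 692 control-only regions, another of the same set lay within 100 kb of 14.9%. This share was 9.92% for the 363 of Flt3-ITD and 55.6% for the 4975 of Smc3-deleted Flt3-ITD. The window of chromosome 5 from 149 to 150 Mb held 5, among 64 regions called there in both Smc3 del/+ libraries: chr5:149053467-149054485, 149677817-149679029, 149758271-149759041, 149825924-149826864 and 149995110-149995791. Their percentiles ran from 0.436 to 24.9 in replicate 1 and from 6.39 to 40.6 in replicate 2, so all 5 lay below the middle of both lists. The last had all 6 other libraries within 1 kb, as had the fourth. On chromosome 13 from 64 to 65 Mb there were 4, among 28 regions called there in both Smc3 del/+ libraries. Of these 4, 3 followed each other at 64527281-64528245, 64530909-64531341 and 64548846-64549616, with gaps of 2663 and 17504 bp and no peak of another genotype within 1 kb. On chromosome 9 from 100 to 101 Mb there were 4, among 23 regions called there in both Smc3 del/+ libraries. Of these 4, chr9:100548062-100548663 and chr9:100564074-100564884 were 15410 bp apart.

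Regions called only in each of the other genotypes gave values to set beside these. Regions called only in both control libraries made up 1.32% of what both called, against 1.35% for Smc3 del/+, 0.732% for Flt3-ITD and 7.94% for Smc3-deleted Flt3-ITD. Median percentiles in their own libraries were 21.4 and 16.9 for control, 18.3 and 15.8 for Flt3-ITD and 24.7 and 25.6 for Smc3-deleted Flt3-ITD, so low scores were common to all 4 sets. A peak of another genotype lay within 1 kb of 34.4% of the control-only regions, 39.3% of those of Smc3 del/+, 53.7% of those of Flt3-ITD and 18.1% of those of Smc3-deleted Flt3-ITD. A region called in all 8 libraries lay within 10 kb of 49.6%, 47.5%, 70.8% and 40.4% of them, in the same order. These are descriptions without a test, since the regions of a set share their libraries and the lists differ in length.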

How the data were processed

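Per the submitters' processing notes, reads were aligned with Bowtie (no version) to mm9. No label, header or note names the peak caller. The authors deposited 1 peak list per library with 6 columns, whose only measurement is a score per peak between 0.99 and 1 that is the authors' own and was used within a list only. No read numbers are given, so no depth or precision follows. Peaks overlapping by 1 bp or more were merged, and a library called a region in which it had a peak. A percentile is the rank of a region's best peak in its list. Merging and the exact test were tested on simulated data with known answers. The members and lists were chosen with earlier results of these data known. Named regions are the 10 with the highest mean percentile (ties by width, not all printed), the 5 most isolated, the 3 windows of 1 Mb with most regions, and 3 on each side of the rule's limit. Gene and motif analyses planned for mm9 annotation were not run. Exact permutation tests compared 2 with 6 libraries over 28 assignments, with Benjamini-Hochberg adjustment over 2 tests. Python 3.11.15 was used with numpy 2.4.6 and pandas 2.3.3. Intervals came from scipy 1.17.1, and figures from matplotlib 3.10.9.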

Additional observations from a re-analysis of the deposited data

Results flagged for a closer look

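The sex chromosomes lie outside the rule. There, 47 of the 1671 regions called in both Smc3 del/+ libraries were called in none of the other 6. Of the 1784 called there in both control libraries, 32 were called in no other library. Of the 47, 46 were on X and 1 on Y, and of the 32 of control, 31 were on X and 1 on Y. Flt3-ITD had 26 such regions of 1811 called in both its libraries. Smc3-deleted Flt3-ITD had 238 of 1774, with 104 on X and 134 on Y. The difference between Smc3 del/+ and control was not tested.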

How the results depend on the processing

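The count of 629 became 1157 with lists of equal length, 382 with no peak of another genotype allowed within 1 kb, 363 with the Flt3-ITD and Smc3 del/+ libraries exchanged, and 1004 without both Smc3-deleted Flt3-ITD libraries. Leaving out 1 library at a time, which loosens the rule, gave 703 to 3318, the highest without Smc3 del/+ replicate 1. The 5 other alternatives (upper 50% of scores, joining at 100 or 500 bp, 50% overlap, sex chromosomes kept) gave 487 to 676. The share with a peak of another genotype within 1 kb, 39.3%, was 78.2% at 10 kb, 11.9% at 100 bp and 31.6% with lists of equal length.

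The difference in score percentile of neighbouring shared regions kept its sign in the other 16 alternatives and ran from 3.53 to 3.63 points with 1 library left out, but was 11.6 with medians over regions and 2.02 with the Flt3-ITD and Smc3 del/+ libraries exchanged. It passed after adjustment in none, which says nothing about stability, since with 1 library or both Smc3-deleted Flt3-ITD libraries left out, or with the block, the assignments left allow no pass or allow one only if both tests reach their smallest p. It was -0.0766 around control-only regions in place of the members. The difference in width, 0.0150, was -0.00863 with the median over regions and -0.0178 around control-only regions, and ran from -0.0148 without Smc3 del/+ replicate 1 to 0.0448 without Smc3 del/+ replicate 2; the cause was not tested. With a replicate block, which exchanges libraries within the same replicate number, the score difference of 3.57 had an exact permutation p of 0.0625, the smallest it allows, and the width difference of 0.0150 one of 0.938. The numbers do not pair the libraries by any label, and deviations of same-numbered libraries from their genotype means correlated between -0.0141 and 0.00886 over 6 pairs. Without read depth, an uncalled region cannot be told from one just under a caller's limit.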
